A study of Mus musculus with 2 samples.

Results

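Microglia of irradiated mouse medulloblastoma were taken from single-cell RNA sequencing of tumour tissue as the cells that carried complement C1q transcripts and transcripts of homeostatic microglia but few transcripts of border macrophages. The cells were chosen by raw UMIs (unique molecular identifiers, each standing for 1 captured RNA molecule): no fewer than 500 genes and no more than 10% mitochondrial UMIs per cell, at least 5 UMIs summed over C1qa, C1qb and C1qc, at least 3 over P2ry12, Tmem119, Sall1 and Siglech, and at most 3 over Mrc1, Pf4, F13a1 and Ms4a7. These limits gave 52 microglia among 10366 kept cells of the FLASH library and 68 among 8461 kept cells of the standard library, 120 of 18827 in all. The FLASH group was 1 library of tumour tissue from Math1-Cre;SmoM2fl/fl mice irradiated with FLASH protons, a mode with an ultra-high dose rate. The standard group was 1 library of tumour tissue from mice of the same genotype irradiated with standard protons. The sample labels give 5 Gy and the series design gives 10 Gy for both, and this difference could not be settled. The sources used here give neither the time after irradiation nor the number of mice behind a library, and both groups were irradiated, so no value below can be set against unirradiated tissue. Math1-Cre acts in the granule neuron lineage, and there turns on SmoM2, Smoothened in an activated form, which drives Sonic hedgehog signalling. Microglia arise outside that lineage and are therefore host cells of this model. Each group is 1 library, so the groups could not be tested against each other. Every difference below describes these libraries and has no replicate check, and all intervals are at 95% and cover counting error only.

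Microglia are the resident macrophages of brain tissue. They enter the brain before birth, renew themselves locally, and depend on the receptor Csf1r for survival and on transforming growth factor beta for their identity. They scan the tissue with processes that follow ATP and ADP through P2ry12, clear dead cells and debris, and make complement C1q. Border macrophages of the meninges and vessels, and macrophages that come from blood monocytes, share C1q and much of the phagocytic machinery with them but carry Mrc1, Pf4 or Ms4a7.

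The FLASH library held 14269 deposited cells and the standard library 12867. The limits on genes and mitochondrial UMIs left cells with a median of 5329.5 UMIs after FLASH and 5700 after standard irradiation. The 52 FLASH microglia together had 428114 UMIs and the 68 standard microglia had 536030. FLASH microglia had a median of 7506 UMIs (1414 to 21283) and 2276 genes, and standard microglia a median of 7606 UMIs (1373 to 17869) and 2412 genes. Depth was thus close between the groups, as was the median mitochondrial share, 4.34% after FLASH and 4.37% after standard irradiation. The libraries shared 46 cell barcodes, none of them among the microglia. Levels are given as CPM, counts per 1000000 of the UMIs summed over a class of cells in a library.

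The labelled identity was checked on each gene of the rule, and these values chose the cells, so they are given as a description. P2ry12, the purinergic receptor of resting microglia, had a UMI in 45 of 52 FLASH cells and 67 of 68 standard cells, and a level of 451 CPM in FLASH microglia and 677 CPM in standard microglia. Tmem119, a membrane protein of homeostatic microglia, was found in 36 of 52 FLASH cells and 44 of 68 standard cells, Sall1, a transcription factor that keeps the microglial program, in 33 of 52 FLASH cells and 38 of 68 standard cells, and Siglech, a sialic acid receptor, in 37 of 52 FLASH cells and 44 of 68 standard cells. All 4 genes were found together in 15 FLASH and 20 standard cells. Border macrophage transcripts of the rule were at 0 in 41 of the 52 FLASH microglia and 60 of the 68 standard microglia. Just inside the homeostatic limit, at a sum of 3, lay 12 FLASH and 8 standard cells, and just outside it, at 2, lay 18 FLASH and 16 standard cells. At the macrophage limit of 3 lay 4 FLASH and 0 standard cells, and at 4 lay 2 FLASH and 2 standard cells. No cell lay near the C1q limit, since the lowest C1q sum among microglia was 15 UMIs after FLASH and 26 after standard irradiation.

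Microglia made up 0.502% (95% Clopper-Pearson interval 0.375 to 0.657) of kept cells after FLASH and 0.804% (0.625 to 1.02) after standard irradiation, a log2 ratio of -0.68 (-1.23 to -0.14). Among all cells past the C1q minimum, 304 after FLASH and 302 after standard irradiation, they made up 17.1% (13.05 to 21.8) after FLASH and 22.5% (17.9 to 27.7) after standard irradiation, a log2 ratio of -0.40 (-0.95 to 0.15). As a share of kept cells, all cells past the C1q minimum were lower after FLASH too, a log2 ratio of -0.28 (-0.52 to -0.049). So were the C1q cells with a macrophage sum over 3 and a homeostatic sum under 3, called macrophages below, at -0.50 (-0.92 to -0.081). Among C1q cells, the lower microglia share lay beside a difference of the opposite sign in cells that reached both the homeostatic and the macrophage sum. These were 55 FLASH cells, 18.1% of C1q cells, and 37 standard cells, 12.3%, a log2 ratio of 0.56 (-0.065 to 1.20). When the macrophage limit was dropped, the homeostatic sum was reached by 107 FLASH cells (35.2%) and 105 standard cells (34.8%), and the log2 ratio was 0.018 (-0.38 to 0.42). The lower share of microglia among C1q cells after FLASH was therefore present under the macrophage limit and not seen without it.

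**Figure D1:**
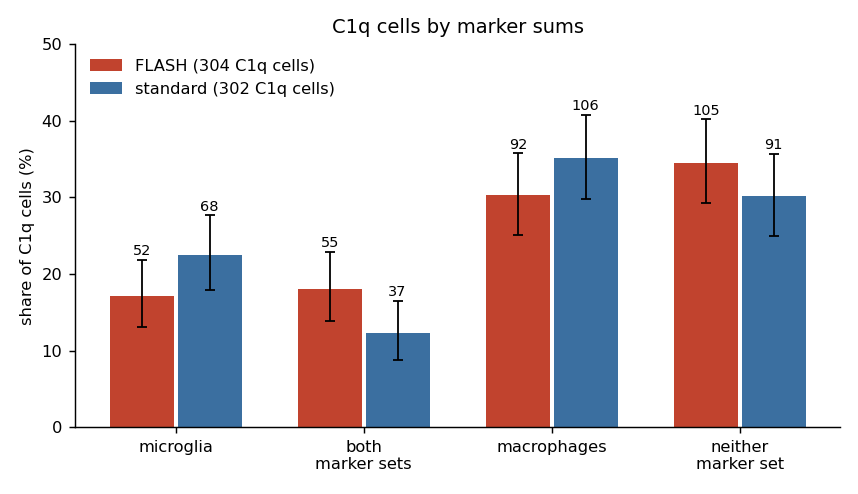
Share of C1q cells (percent, vertical axis) in 4 classes set by the marker sums, FLASH left and standard right in each pair. Bars are shares, error bars are exact 95% Clopper-Pearson intervals and the numbers are cells. Microglia were 52 of 304 after FLASH and 68 of 302 after standard irradiation, and the intervals of every pair overlap.

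Cells that reached both sums were set beside microglia and macrophages. Siglech or Sall1, genes of the rule, had a UMI in 45 of 52 FLASH microglia (86.5%, 74.2 to 94.4) and 55 of 68 standard microglia (80.9%, 69.5 to 89.4). Among cells with both marker sets this was 6 of 55 after FLASH (10.9%, 4.11 to 22.2) and 8 of 37 after standard irradiation (21.6%, 9.83 to 38.2), and among macrophages 2 of 92 after FLASH and 3 of 106 after standard irradiation. Their homeostatic sum thus came mostly from P2ry12 and Tmem119. Sparc, a secreted matrix protein that the rule did not use, had a UMI in 13 of the 55 FLASH and 10 of the 37 standard cells with both marker sets, against 50 of 52 FLASH cells and 68 of 68 standard cells among microglia. The cells with both sets were also deeper, with medians of 10461 UMIs after FLASH and 10036 after standard irradiation.

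Microglia were next described against the macrophages of the same library, which are the C1q cells with a macrophage sum over 3 and a homeostatic sum under 3 (92 FLASH and 106 standard cells). Since the rule separated these classes, the differences are a description of what the classes hold. A gene was compared when it had at least 50 UMIs in each library in microglia or in macrophages. Leaving out the 11 genes of the rule, 1904 genes were compared. Of these, 84 (4.41%) were at least 2 times higher in microglia in both libraries and 79 (4.15%) at least 2 times lower. A list of 30 other microglia identity genes had 21 members in this comparison, of which 15 were at least 2 times higher in both libraries and 0 were lower. Some of them, such as Gpr84, reached the minimum only through microglia, so the count describes the list and supports nothing.

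Sparc (chr11:55394500-55423183, GRCm38) led on the microglial side. Over the microglia of each library Sparc had 0, 2928 and 7899.9 CPM in the lowest, median and highest FLASH cell, and 834, 3183 and 9635 CPM in standard cells. Its summed level was 2880.1 CPM in FLASH microglia and 3449 CPM in standard microglia, and 128 CPM in FLASH macrophages and 27.9 CPM in standard macrophages. 1 FLASH macrophage carried 73.7% of the Sparc UMIs of its class. Nearly all microglia and few macrophages carried Sparc, which also holds at equal depth: thinned to 2000 UMIs per cell, Sparc was found in 93.9% of FLASH and 100% of standard microglia, in 6.82% of FLASH and 3% of standard macrophages, and in 1.80% of FLASH and 2.15% of standard cells without any C1q UMI. Those last cells, mostly of the tumour lineage, were thinned from median depths of 5261 UMIs after FLASH and 5632 after standard irradiation. Free RNA and cells that transcribe Sparc were not told apart in them.

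Cx3cr1, the fractalkine receptor and a member of the identity list, had 0, 1283 and 4404 CPM in the lowest, median and highest FLASH cell, and 0, 1520 and 5514 CPM in standard cells. It was found in 51 of 52 FLASH and 65 of 68 standard microglia, but also in most macrophages at a lower level. Its summed level was 1469 CPM in FLASH microglia and 1653 CPM in standard microglia, and 651 CPM in FLASH macrophages and 596 CPM in standard macrophages. The tetraspanin Cd81 stood further apart, at 1465 CPM in FLASH microglia and 1595 CPM in standard microglia against 63.3 CPM in FLASH macrophages and 102 CPM in standard macrophages. The lysophosphatidylserine receptor Gpr34 had 481 CPM in FLASH microglia and 575 CPM in standard microglia, and 70.0 CPM in FLASH macrophages and 84.9 CPM in standard macrophages. Among the remaining genes that led on the microglial side were Gpr84, a fatty acid receptor, the organic anion carrier Slco2b1, Selplg, the ligand of P-selectin, the secreted protease inhibitor Serpine2, and Pros1, which bridges dying cells to receptors of the TAM family. Pros1 had 147 CPM in FLASH microglia and 136 CPM in standard microglia, and 16.2 CPM in FLASH macrophages and 22.3 CPM in standard macrophages. Serpine2 had 486 CPM in FLASH microglia and 507 CPM in standard microglia, and 61.9 CPM in FLASH macrophages and 63.6 CPM in standard macrophages. Ecscr, Golm1, Pde3b, Slc12a2, Arhgap5, Plxdc2 and Cst7 completed the 15 highest, to which Cx3cr1 did not belong.

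Cst7, an inhibitor of lysosomal cysteine proteases that belongs to the disease-associated program, stood at 336 CPM in FLASH microglia and 271 CPM in standard microglia against 14.8 CPM in FLASH macrophages and 16.7 CPM in standard macrophages. It was uneven between cells, with a UMI in 31 of 52 FLASH cells and 36 of 68 standard cells. Thinned to 2000 UMIs per cell it was found in 24.5% of FLASH and 31.3% of standard microglia, in 2.27% of FLASH and 2% of standard macrophages, and in 0.15% of FLASH and 0.1% of standard cells without C1q UMIs. The cathepsin inhibitor Cst3 had 11913 CPM in FLASH microglia and 15230.5 CPM in standard microglia, and 3024 CPM in FLASH macrophages and 3042 CPM in standard macrophages.

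Of the 10 genes lowest in microglia, 2 encode chains of MHC class II, which presents antigen to CD4 T cells. Mgst1, a membrane-bound glutathione transferase, had 0 UMIs in microglia of both libraries, and 136 CPM in FLASH macrophages and 122 CPM in standard macrophages. Counted against a floor of 3 UMIs per library, it was at least 19.4-fold lower after FLASH and at least 21.7-fold lower after standard irradiation. Retnla, a marker of alternative activation, was likewise at 0 in microglia and at 211 CPM in FLASH macrophages and 58.1 CPM in standard macrophages, which is at least 30.2-fold lower after FLASH and at least 10.4-fold lower after standard irradiation. H2-Aa, the alpha chain of MHC class II, had 14.0 CPM in FLASH microglia and 1.87 CPM in standard microglia, and 248 CPM in FLASH macrophages and 137 CPM in standard macrophages. The inhibitory lectin Clec12a had 7.01 CPM in FLASH microglia and 3.73 CPM in standard microglia, and 140 CPM in FLASH macrophages and 100.5 CPM in standard macrophages. Thbs1, a matrix glycoprotein, had 9.34 CPM in FLASH microglia and 7.46 CPM in standard microglia, and 151 CPM in FLASH macrophages and 156 CPM in standard macrophages. Ahnak, Cfp, S100a6, H2-Eb1 and Itga4 completed the 10. By list, 4 of 6 MHC class II genes and 5 of 14 interferon-stimulated genes were at least 2 times lower in microglia in both libraries, while 5 of 12 cytokine and chemokine genes were at least 2 times higher and 1 was lower. Genes could enter these counts through the class where they were high, as H2-Aa and H2-Eb1 did through macrophages. The counts by list therefore describe the classes and support nothing. Of 19 lysosomal genes compared, 0 were at least 2 times higher or lower in both libraries.

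**Figure D2:**
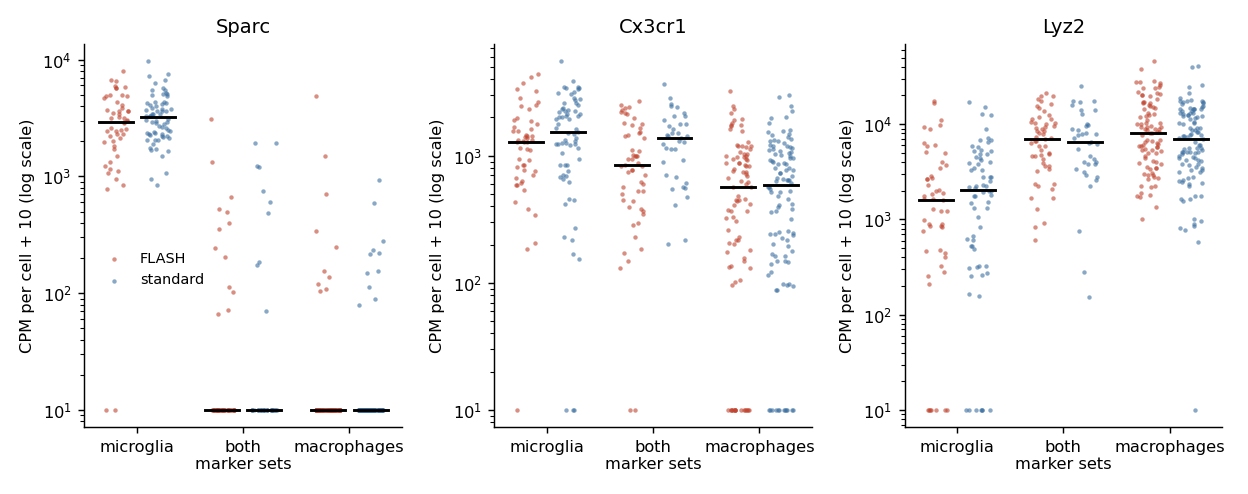
CPM per cell plus 10 (log scale) of Sparc, Cx3cr1 and Lyz2 in microglia, in cells with both marker sets and in macrophages, FLASH left (red) and standard right (blue). Each point is a cell and each black line a median. Sparc has a median of 0 CPM in both other classes, but their highest FLASH cells reach 3085 CPM (both marker sets) and 4821 CPM (macrophages). Lyz2 of cells with both marker sets lies at the level of macrophages.

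Lyz2, the lysozyme of phagocytes, showed the overlap that remained. It had 0, 1598 and 17365 CPM in the lowest, median and highest FLASH cell, and 0, 2041 and 17013 CPM in standard cells among microglia. Its summed level was 2922 CPM in FLASH microglia and 4046 CPM in standard microglia, and 11116 CPM in FLASH macrophages and 9459 CPM in standard macrophages, while cells with both marker sets had 8198 CPM after FLASH and 7507 CPM after standard irradiation. Ms4a6c, a marker of monocyte-derived macrophages, had 117 CPM in FLASH microglia and 72.8 CPM in standard microglia, 616 CPM after FLASH and 502 CPM after standard irradiation in cells with both sets, and 641 CPM in FLASH macrophages and 530.4 CPM in standard macrophages. On Lyz2, Ms4a6c and Sparc, cells with both sets lay nearer to macrophages than to microglia in both libraries. On Cx3cr1 they did so after FLASH (951 CPM) but lay nearer to microglia after standard irradiation (1394 CPM).

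Markers of other cell types were summed as lists. A list of 14 border macrophage markers summed to 444 CPM in FLASH microglia and 414 CPM in standard microglia, against 3229 CPM in FLASH macrophages and 2852 CPM in standard macrophages, and Cd163, Lyve1, Cbr2, Clec10a and Cd209f were at 0. Of these 14, 4 are genes of the rule, and the other members summed to 392 CPM in FLASH microglia and 394 CPM in standard microglia. Most of that came from Stab1, Folr2 and Ms4a6c. Stab1, a scavenger receptor, had 154 CPM in FLASH microglia and 142 CPM in standard microglia. It had a UMI in 28 of 52 FLASH cells and 35 of 68 standard cells. Folr2, a folate receptor, had 107 CPM in FLASH microglia and 172 CPM in standard microglia. It had a UMI in 19 of 52 FLASH cells and 36 of 68 standard cells. Ms4a6c had 117 CPM in FLASH microglia and 72.8 CPM in standard microglia. The close sums thus held differences of opposite sign. The log2 ratio of FLASH over standard microglia was -0.67 for Folr2, 0.68 for Ms4a6c and 0.12 for Stab1. Stab1 was higher in macrophages (323 CPM in FLASH macrophages and 256 CPM in standard macrophages), whereas Folr2 was lower there (78.1 CPM in FLASH macrophages and 31.3 CPM in standard macrophages). Monocyte markers summed to 28.0 CPM after FLASH and 18.7 CPM after standard irradiation, with Ly6c2, Chil3 and Ifitm6 among those at 0. Of the T and NK cell markers 7 of 8 were at 0. Neutrophil markers summed to 154 CPM in FLASH microglia and 121 CPM in standard microglia, above the 70.0 CPM of FLASH macrophages and 75.9 CPM of standard macrophages. Csf3r, the receptor for granulocyte colony-stimulating factor, which the identity list also holds, gave 65 and S100a8, S100a9, Retnlg, Mmp8 and Ly6g gave 0 of these UMIs after FLASH. In standard microglia Csf3r gave 64 and S100a8 gave 1. Dendritic cell markers summed to 131 CPM in FLASH microglia and 103 CPM in standard microglia, against 18.8 CPM in FLASH macrophages and 25.7 CPM in standard macrophages. Fscn1, an actin-bundling protein gene, gave all 56 of their UMIs after FLASH and 53 of 55 after standard irradiation, and Flt3, Xcr1, Clec9a, Cd209a and Ccr7 were at 0. Markers of the granule neuron lineage, which form the tumour, summed to 1014 CPM in FLASH microglia and 687 CPM in standard microglia, against 6703 CPM in FLASH cells and 6767 CPM in standard cells under the C1q minimum. Astrocyte markers summed to 103 CPM after FLASH and 274 CPM after standard irradiation. In the standard library 1 cell held all 33 UMIs of the water channel Aqp4.

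Some secreted and inflammatory genes were uneven among microglia. Spp1, which encodes the phosphoprotein osteopontin, had 0, 161 and 93388 CPM in the lowest, median and highest FLASH cell, and 0, 0 and 60999.5 CPM in standard cells. It reached 7444 CPM in FLASH microglia and 3356 CPM in standard microglia in sum, but 2 FLASH cells held 1445 and 1063 of 3187 UMIs and 2 standard cells held 1090 and 389 of 1799, so a few cells set the level in each library. Gpnmb, a lysosomal glycoprotein of lipid-laden phagocytes, had 10 UMIs in 5 FLASH cells and 60 UMIs in 1 standard cell. Ccl12, a monocyte-attracting chemokine, had a UMI in 26 of 52 FLASH cells and 31 of 68 standard cells, and the top cell held 40.4% of its UMIs after FLASH and 45.8% after standard irradiation. The neutrophil-attracting chemokine Cxcl2 had a UMI in 15 of 52 FLASH cells and 9 of 68 standard cells. By contrast the top cell held at most 6.33% of the UMIs of Sparc, 8.90% of those of Cx3cr1 and 7.87% of those of Apoe in either library.

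A few microglia carried mitotic transcripts. At least 3 UMIs over 8 mitotic genes (Mki67, Top2a, Cdk1, Birc5, Ccnb1, Ccnb2, Tpx2 and Ube2c) were found in 7 of 52 FLASH microglia (13.5%, 5.59 to 25.8) and 5 of 68 standard microglia (7.35%, 2.43 to 16.3). Macrophages gave 9.78% after FLASH and 10.4% after standard irradiation, and cells under the C1q minimum, mostly tumour cells, gave 38.1% after FLASH and 37.3% after standard irradiation. All 12 of these microglia carried Sparc. Granule lineage markers in them had a median of 419.8 CPM after FLASH and 306 CPM after standard irradiation, against 234 CPM in the other FLASH microglia and 251 CPM in the other standard microglia. In cells without C1q UMIs the median was 5554 CPM after FLASH and 5670 CPM after standard irradiation. In 2 of the 7 FLASH cells and 0 of the 5 standard cells these markers passed 2000 CPM, and the part of tumour RNA in those cells was not tested.

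FLASH microglia were then compared with standard microglia gene by gene. Most genes lay close together. Of 1264 genes that had 100 UMIs or more in the 2 libraries together, 42 (3.32%) were at least 1.5 times higher after FLASH and 41 (3.24%) at least 1.5 times lower, and the median log2 ratio of FLASH over standard was 0.039. With a minimum of 30 UMIs, used for the gene lists below, 324 of 4098 genes (7.91%) were at least 1.5 times higher and 345 (8.42%) at least 1.5 times lower, and the median was 0.018. Of the same 4098 genes, 52.2% were above a log2 ratio of 0 and 47.8% below it. These shares are the background for each count that follows over genes with at least 30 or 100 UMIs.

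**Figure D3:**
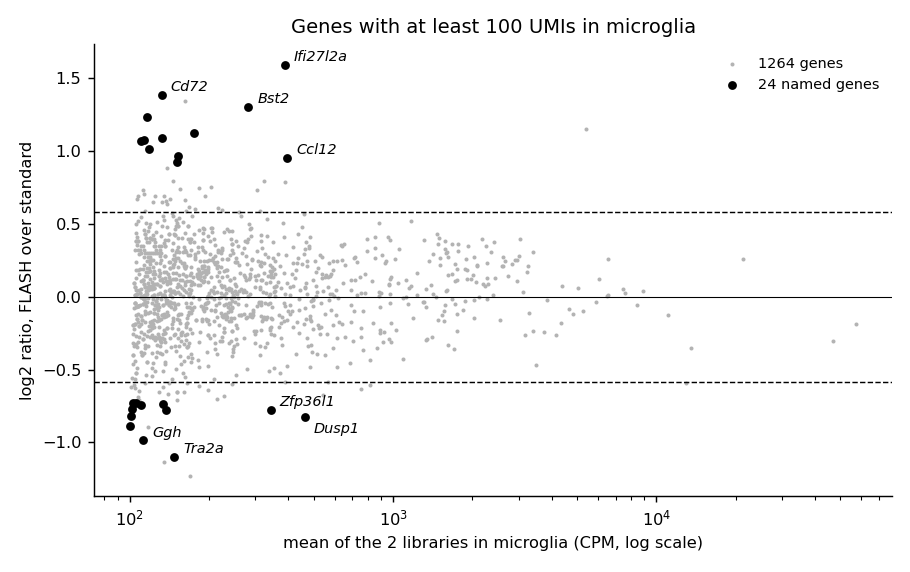
Log2 ratio of FLASH over standard microglia (vertical axis) against the mean CPM of the 2 libraries (log scale) for 1264 genes with at least 100 UMIs. Dashed lines mark 1.5 times and black points the 24 named genes; Ifi27l2a, Cd72 and Bst2 lie highest among them and Tra2a lowest.

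Among the 12 genes named for the highest ratios, 2 are induced by interferon. Ifi27l2a (chr12:103442167-103443680, GRCm38), a small membrane protein gene, had 582 CPM in FLASH microglia and 192 CPM in standard microglia with a UMI in 28 of 52 FLASH cells and 29 of 68 standard cells, a log2 ratio of 1.59 (1.26 to 1.94). Bst2, which encodes tetherin, a tether that holds budding viruses on the cell, had 402 CPM in FLASH microglia and 162 CPM in standard microglia with a UMI in 37 of 52 FLASH cells and 37 of 68 standard cells, a log2 ratio of 1.30 (0.93 to 1.70). The same genes were higher after FLASH in macrophages, at 495 CPM in FLASH macrophages and 348 CPM in standard macrophages for Ifi27l2a and 941 CPM in FLASH macrophages and 683 CPM in standard macrophages for Bst2. When the rule was applied to 2000 UMIs per cell, which left 18 FLASH and 31 standard microglia, the log2 ratio of Ifi27l2a was 0.31.

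The other genes of this group were not of 1 kind. Cd72, an inhibitory receptor of B cells and microglia, had 192 CPM in FLASH microglia and 72.8 CPM in standard microglia, a log2 ratio of 1.39 (0.83 to 1.99). Crybb1, a crystallin gene transcribed in microglia, had 179.9 CPM in FLASH microglia and 84.0 CPM in standard microglia, a log2 ratio of 1.09 (0.55 to 1.66), and was the member of the identity list that was at least 1.5 times higher. Macrophages held little of it (22.9 CPM in FLASH macrophages and 17.9 CPM in standard macrophages). Ccnd1, which encodes cyclin D1, had 164 CPM after FLASH and 69.0 CPM after standard irradiation, a log2 ratio of 1.24 (0.65 to 1.86). Hmgn2, a nucleosome-binding protein, had 154 CPM after FLASH and 72.8 CPM after standard irradiation. Both are abundant in cells under the C1q minimum, where Ccnd1 had 418 CPM after FLASH and 392 CPM after standard irradiation and Hmgn2 had 786 CPM after FLASH and 727 CPM after standard irradiation, and the part of tumour RNA was not tested.

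Fxyd5, a regulator of the sodium pump, had 241 CPM after FLASH and 110.1 CPM after standard irradiation (1.12), and the stress granule protein gene G3bp1 had 149 CPM after FLASH and 70.9 CPM after standard irradiation (1.07). Ndufs8, a subunit of respiratory complex I, had 159 CPM after FLASH and 78.4 CPM after standard irradiation (1.01), and Swi5, a recombination protein gene, had 199 CPM after FLASH and 104 CPM after standard irradiation (0.92). In cells under the C1q minimum G3bp1 had 263 CPM after FLASH and 246 CPM after standard irradiation. Swi5 had 271 CPM after FLASH and 279 CPM after standard irradiation there, and the part of tumour RNA was not tested for either gene. The sign of Fxyd5 turned to -0.16 with the rule on 2000 UMIs. Rtn1, a reticulon of neurons, had 201 CPM after FLASH and 103 CPM after standard irradiation, but in cells under the C1q minimum it had 1092 CPM after FLASH and 1059 CPM after standard irradiation. Its log2 ratio of 0.96 turned to -0.47 without the tenth of microglia richest in lineage markers. Ccl12 had 521 CPM after FLASH and 269 CPM after standard irradiation, a log2 ratio of 0.95, which turned to -0.15 without the 6 most interferon-rich microglia of each library. Cd72, Bst2, Ccnd1 and Crybb1 were at least 1.5 times higher under all 18 alternatives computed for single genes, and the other 8 of the 12 were not. With the rule on 2000 UMIs the ratio of G3bp1 was 0.11 and that of Hmgn2 0.41, and without the macrophage limit G3bp1 had 0.58, Ndufs8 0.39 and Swi5 0.52.

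Tra2a, a splicing regulator, had the lowest ratio of the 12 genes named on this side, with 93.4 CPM in FLASH microglia and 201 CPM in standard microglia with a UMI in 23 of 52 FLASH cells and 47 of 68 standard cells, a log2 ratio of -1.10 (-1.67 to -0.57). Dusp1, a phosphatase that switches off MAP kinases and is induced by glucocorticoids and stress, had 332 CPM in FLASH microglia and 589.5 CPM in standard microglia, a log2 ratio of -0.83 (-1.13 to -0.54). Tsc22d3, the glucocorticoid-induced leucine zipper gene, had 77.1 CPM after FLASH and 129 CPM after standard irradiation (-0.73). Zfp36l1, which promotes decay of AU-rich mRNAs, had 252 CPM after FLASH and 433 CPM after standard irradiation (-0.78 (-1.12 to -0.44)).

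Il1a, the alpha form of interleukin 1, had 72.4 CPM in FLASH microglia and 129 CPM in standard microglia, a log2 ratio of -0.82 (-1.49 to -0.20). It was lower after FLASH in macrophages too (20.2 CPM in FLASH macrophages and 38.0 CPM in standard macrophages). Adgrg1, an adhesion receptor of microglia and neural progenitors, had a UMI in 15 of 52 FLASH cells and 40 of 68 standard cells and 70.1 CPM in FLASH microglia and 131 CPM in standard microglia, a log2 ratio of -0.88 (-1.57 to -0.26). Thinned to 2000 UMIs per cell, Adgrg1 was found in 16.3% of FLASH and 17.2% of standard microglia, so its detection was close at equal depth. Ggh, a lysosomal enzyme that trims folates, had 74.7 CPM after FLASH and 149 CPM after standard irradiation (-0.98). Rab8b, a small GTPase of vesicle traffic, had 81.8 CPM after FLASH and 138 CPM after standard irradiation (-0.75), and the monocarboxylate carrier Slc16a6 had 79.4 CPM after FLASH and 132 CPM after standard irradiation (-0.73, 0.032 with the rule on 2000 UMIs). Thrap3, Mia2 and Cebpz completed the group, with log2 ratios of -0.78, -0.77 and -0.73.

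Of these 12 lower genes, 0 stayed at least 1.5 times lower under all 18 alternatives, and 11 stayed below 0 under all of them, Slc16a6 being the exception. With the rule on 2000 UMIs Adgrg1 had -0.14, Dusp1 -0.17, Tsc22d3 -0.25 and Ggh -0.55. Without the macrophage limit Tra2a had -0.55, Dusp1 -0.56, Rab8b -0.54, Thrap3 -0.50, Tsc22d3 -0.49, Mia2 -0.48 and Cebpz -0.46. With a homeostatic sum of at least 2 Thrap3 had -0.51 and Mia2 -0.27. As a mean of cells Il1a had -0.53, Adgrg1 -0.52 and Tsc22d3 -0.30. Zfp36l1 had -0.55 with at most 5% mitochondrial UMIs, Cebpz -0.54 with a homeostatic sum of at least 5 and Tsc22d3 -0.52 without the 3 deepest microglia.

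Interferon-stimulated genes formed the list with the highest median. They are switched on when interferon binds its receptor and the factor ISGF3 binds the interferon-stimulated response element, whose core was taken as GAAA, 2 bases of any kind and GAAA, or TTTC, 2 bases of any kind and TTTC on the other strand. Promoters of this list were read from RefSeq (GRCm38.p6), from 250 bases before to 50 after the start, which matched 18 of 26 genes. The core, on either strand and with overlapping matches allowed, was in 11 of them (61.1%), against 3.99% of 27025 genes. It was in 0 of 19 matched genes of the identity list, which are too few to tell from the share over all genes. The promoters of Bst2 (chr8:71537423-71537722, minus strand), Isg15 (chr4:156200769-156201068, minus strand) and Ifitm3 (chr7:141010695-141010994, minus strand) are shown because these genes were among those that differed between the libraries and carry 2, 3 and 2 matches, which are in capitals.
Bst2: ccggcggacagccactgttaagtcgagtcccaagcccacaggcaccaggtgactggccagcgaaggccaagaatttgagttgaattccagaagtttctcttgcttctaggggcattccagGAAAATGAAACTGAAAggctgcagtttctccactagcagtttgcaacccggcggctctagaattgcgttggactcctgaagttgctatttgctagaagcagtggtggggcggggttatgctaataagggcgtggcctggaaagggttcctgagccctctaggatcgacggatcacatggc
Isg15: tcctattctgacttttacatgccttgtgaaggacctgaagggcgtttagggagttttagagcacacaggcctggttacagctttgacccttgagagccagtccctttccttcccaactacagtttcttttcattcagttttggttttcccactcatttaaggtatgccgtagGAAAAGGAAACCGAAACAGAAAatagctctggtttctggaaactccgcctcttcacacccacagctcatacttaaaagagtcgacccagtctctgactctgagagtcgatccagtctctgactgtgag
Ifitm3: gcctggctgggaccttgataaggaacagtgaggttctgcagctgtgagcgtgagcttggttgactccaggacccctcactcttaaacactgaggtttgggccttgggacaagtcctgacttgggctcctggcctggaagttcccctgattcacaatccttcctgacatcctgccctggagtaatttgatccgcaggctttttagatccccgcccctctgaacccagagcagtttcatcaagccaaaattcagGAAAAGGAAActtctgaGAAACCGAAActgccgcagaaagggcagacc
In Bst2 the matches start at bases -130 and -124 from the start and overlap, and in Ifitm3 they start at 3 and 20, after the start.

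The 26 genes had 1207 UMIs in FLASH microglia and 601 in standard microglia, or 2819 CPM after FLASH and 1121 CPM after standard irradiation. The members with at least 30 UMIs were 12, all 12 above a log2 ratio of 0 and 9 at least 1.5 times higher, and the median was 1.30. Some reached that minimum only through FLASH cells, so the count describes the list and supports nothing. Of the 14 members under it, 13 had the higher level after FLASH, and Oas1a, with 1 UMI after FLASH and 2 after standard irradiation, had the lower. The share over all genes under that minimum is not given here, so this count supports nothing either. Isg15, a ubiquitin-like modifier, had 56 UMIs after FLASH and 8 after standard irradiation, a log2 ratio of 3.06 (2.06 to 4.41). The 6 FLASH microglia richest in the list held 80.4% of its FLASH UMIs. Ifitm3, which blocks viral entry, had 73 UMIs after FLASH and 18 after standard irradiation (2.31 (1.58 to 3.18)). Ifit3, which acts with other IFIT proteins on foreign RNA, had 41 UMIs in 9 FLASH cells and 2 UMIs in 2 standard cells. Ly6e lay closer together, with a log2 ratio of 0.48 (0.20 to 0.76). The sources used here do not say how reads that also map to the near-identical Ifit3b were counted.

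The interferon signal was unevenly spread. In FLASH microglia the 6 richest cells held 130, 126, 109, 89, 84 and 82 of the 1207 UMIs, 51.4% of them, while the richest standard cell held 27. Some of these 6 lay at the limits of the rule, with homeostatic sums of 3, 5, 7, 10, 12 and 3 and macrophage sums of 2, 0, 3, 0, 0 and 0. Macrophages held more of the list, 4523 CPM in FLASH macrophages and 3573 CPM in standard macrophages, and the macrophage genes of the rule stood at 51.4 CPM in FLASH microglia and 20.5 CPM in standard microglia. With a homeostatic sum of at least 5 the list had 2646 CPM in 35 FLASH cells and 1010 CPM in 48 standard cells, and with a macrophage sum of at most 1 it had 2526 CPM in 45 FLASH cells and 1126 CPM in 65 standard cells. At least 5000 CPM of the list was reached by 7 of 52 FLASH microglia (13.5%, 5.59 to 25.8) and 1 of 68 standard microglia (1.47%, 0.037 to 7.92), with 2 FLASH cells and 1 standard cell between 4000 and 6000 CPM. Among macrophages 34.8% passed it after FLASH and 20.8% after standard irradiation. Among cells under the C1q minimum 0.616% did after FLASH and 0.392% after standard irradiation. The median microglia had 1273 CPM after FLASH and 1087 CPM after standard irradiation, so the middle of the groups lay much closer than their sums.

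Without the 6 most interferon-rich microglia of each library, a choice made after seeing the data, the list summed to 1615 CPM in 46 FLASH cells and 991 CPM in 62 standard cells. The median log2 ratio was 0.29 over the fewer members that then still had at least 30 UMIs. Ifi27l2a then had 369 CPM after FLASH and 156 CPM after standard irradiation (1.23), and Bst2 had 289 CPM after FLASH and 158 CPM after standard irradiation (0.86). Ifitm3 kept 42 UMIs after FLASH and 11 after standard irradiation (2.27). Isg15 kept 11 UMIs after FLASH and 8 after standard irradiation (0.82). Ifit2, with 42 UMIs after FLASH and 1 after standard irradiation in all microglia, then had 1 UMI after FLASH and 1 after standard irradiation. The difference in Ifit2 and most of that in Isg15 thus lay in a few FLASH cells, and that in Ifi27l2a, Bst2 and Ifitm3 did not lie in those cells alone.

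**Figure D4:**
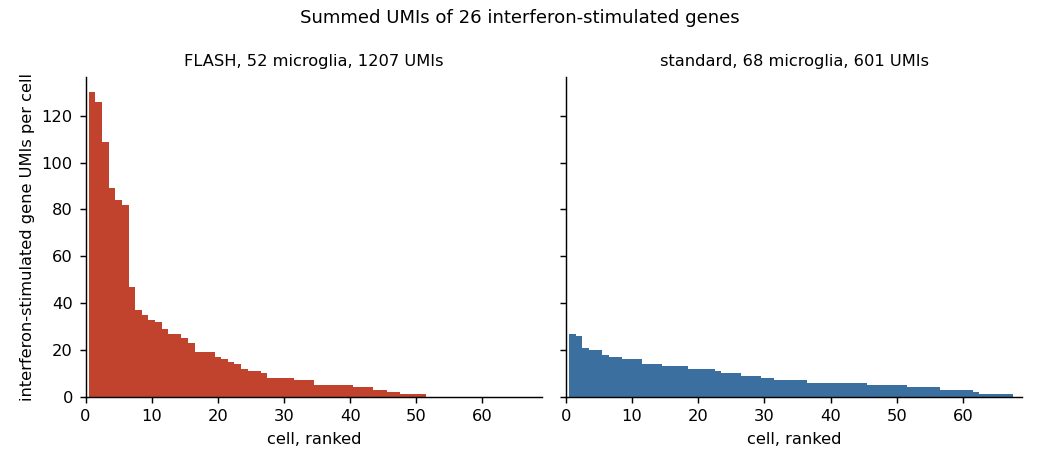
Summed UMIs of 26 interferon-stimulated genes per microglia (vertical axis), cells ranked from high to low (horizontal axis), FLASH left and standard right. Each bar is a cell; 6 FLASH cells reach 82 UMIs or more and the highest standard cell has 27.

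Antigen presentation genes, which interferon also induces, differed less. MHC class I genes had 7 of 9 members above 0 and 1 at least 1.5 times higher, with a median log2 ratio of 0.35. H2-K1, a class I heavy chain, had 717 CPM after FLASH and 563 CPM after standard irradiation (0.35 (0.11 to 0.58)), while H2-D1 had 1124 CPM after FLASH and 1162 CPM after standard irradiation (-0.049 (-0.22 to 0.13)). Psmb8, an immunoproteasome subunit, had 332 CPM after FLASH and 235 CPM after standard irradiation (0.50 (0.14 to 0.85)). Only 4 of 10 MHC class II genes had 30 UMIs. Cd74, the class II chaperone, had 234 CPM after FLASH and 91.4 CPM after standard irradiation, but 55 of its 100 FLASH UMIs lay in 1 cell, and without the top cell of each library it had 105 CPM after FLASH and 82.1 CPM after standard irradiation. H2-Aa was found in 2 FLASH cells and 1 standard cell.

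Microglia identity genes lay slightly lower after FLASH. Of 28 with at least 30 UMIs, 8 were above and 20 below 0, 1 (Crybb1) was at least 1.5 times higher and 0 lower, and the median was -0.17, which turned to 0.12 with the rule on 2000 UMIs. Csf1r, the receptor for the survival factors CSF1 and IL-34, had 867 CPM in FLASH microglia and 1058 CPM in standard microglia (-0.29 (-0.48 to -0.096)), and Sparc had a log2 ratio of -0.26 (-0.37 to -0.16). The sign of Sparc turned to 0.033 with the rule on 2000 UMIs. Trem2, a lipid receptor (2401 CPM after FLASH and 2386 CPM after standard irradiation), and the Fc receptor-like gene Fcrls (2128 CPM after FLASH and 1985 CPM after standard irradiation) were nearly level. P2ry12, a gene of the rule, had a log2 ratio of -0.59 (-0.85 to -0.33), which lay between -0.97 and -0.037 over the alternatives, while Siglech had -0.0095 (-0.44 to 0.42) and Sall1 -0.094 (-0.64 to 0.44).

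Transcription factors of myeloid cells showed 5 of 18 above and 13 below 0, with a median of -0.12. Spi1, which encodes the lineage factor PU.1, had 311 CPM after FLASH and 319 CPM after standard irradiation (-0.037 (-0.38 to 0.30)). Irf8, its partner in microglia, had 287 CPM after FLASH and 366 CPM after standard irradiation (-0.35 (-0.69 to -0.015)). Cebpb, a factor of inflammatory responses, was the 1 member at least 1.5 times higher, at 238 CPM after FLASH and 147 CPM after standard irradiation (0.69 (0.25 to 1.14)). In the list of growth factor signals that maintain microglia, Tgfbr1 had 278 CPM after FLASH and 397 CPM after standard irradiation (-0.51 (-0.85 to -0.19)), and its ligand Tgfb1 had 238 CPM after FLASH and 192 CPM after standard irradiation (0.31 (-0.099 to 0.72)). The median of that list was 0.12 over 11 genes.

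Genes of the disease-associated program, which microglia take up around damage and lipid debris, had no common direction, with 13 of 25 above and 12 below 0, 3 at least 1.5 times higher, 1 at least 1.5 times lower and a median of 0.0012. Tspo, a mitochondrial outer membrane protein used as an imaging target for activated microglia, had 378 CPM in FLASH microglia and 228 CPM in standard microglia (0.73 (0.39 to 1.08)). Lpl, lipoprotein lipase, had 554 CPM after FLASH and 416 CPM after standard irradiation (0.41 (0.14 to 0.68)). Apoe, the lipid carrier, had 53666 CPM in FLASH microglia and 61049 CPM in standard microglia (-0.19 (-0.21 to -0.16)), and macrophages had 90247 CPM in FLASH macrophages and 68808 CPM in standard macrophages. Tyrobp, the adaptor of Trem2, had a log2 ratio of -0.019 (-0.11 to 0.075). Spp1 and Gpnmb were past 1.5 times in opposite directions, and 1 to 2 cells set each, as given above. The sign of Spp1, 1.15, turned to -1.05 with the rule on 2000 UMIs.

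The lysosome and lipid list leaned 1 way with small sizes. Of its 20 members, 2 were above and 18 below 0, 0 were past 1.5 times, and the median was -0.14. Lamp1, a lysosomal membrane protein, had 1194 CPM in FLASH microglia and 1470.1 CPM in standard microglia (-0.30 (-0.46 to -0.14)), cathepsin S, encoded by Ctss, had 3777 CPM in FLASH microglia and 4522 CPM in standard microglia (-0.26 (-0.35 to -0.17)), and Psap, the precursor of sphingolipid activators, had 1427 CPM in FLASH microglia and 1797 CPM in standard microglia (-0.33 (-0.48 to -0.18)). The median was below 0 under all 20 alternatives, between -0.21 and -0.040. Complement, Fc receptor and phagocytosis genes had 16 of 25 above 0, 0 past 1.5 times and a median of 0.023. Fcgr1, the high-affinity receptor for IgG, had 392 CPM after FLASH and 271 CPM after standard irradiation (0.54 (0.21 to 0.87)), and Mertk, which takes up dying cells, had 248 CPM after FLASH and 248 CPM after standard irradiation (-0.0017 (-0.39 to 0.38)).

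Inflammatory cytokines and chemokines had 6 of 15 above and 9 below 0, 1 at least 1.5 times higher (Ccl12) and 1 at least 1.5 times lower (Il1a), with a median of -0.18. That median turned to 0.083 as a mean of cells. Tnf had 210.2 CPM after FLASH and 207 CPM after standard irradiation (0.023 (-0.40 to 0.44)), and Il1b had 208 CPM after FLASH and 246 CPM after standard irradiation (-0.24 (-0.65 to 0.15)). Of the chemokines, Ccl2, which attracts monocytes, had 404 CPM after FLASH and 565 CPM after standard irradiation (-0.48 (-0.76 to -0.21)), and Ccl4 had 818 CPM after FLASH and 970.1 CPM after standard irradiation (-0.25 (-0.45 to -0.049)). Cell by cell both ran the other way. Ccl2 had a UMI in 65.4% of FLASH and 51.5% of standard cells, and Ccl4 in 80.8% of FLASH and 55.9% of standard cells. The median cell had 153 CPM of Ccl2 after FLASH and 104 CPM after standard irradiation. For Ccl4 these medians were 477 CPM after FLASH and 305 CPM after standard irradiation. Cxcl10, which attracts T cells and is induced by interferon, had 26 UMIs in 4 FLASH cells and 2 UMIs in 1 standard cell. Its detection was too thin for a level.

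Immediate early genes, which tissue digestion also induces, had 9 of 27 above and 18 below 0, with a median of -0.12. Atf3, a stress factor, had 416 CPM in FLASH microglia and 664 CPM in standard microglia (-0.67 (-0.94 to -0.41)), and was at least 1.5 times lower together with Dusp1. Fos had 1133 CPM after FLASH and 1252 CPM after standard irradiation (-0.14 (-0.32 to 0.027)), and Jun had 1215 CPM after FLASH and 1485 CPM after standard irradiation (-0.29 (-0.45 to -0.13)). The phosphatase gene Dusp2 went the other way, at 133 CPM after FLASH and 70.9 CPM after standard irradiation (0.90 (0.29 to 1.54)).

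Radiation response genes had a median near 0. Of 9 p53 and DNA damage genes with enough UMIs, 4 were above and 5 below 0, with a median of -0.011. Cdkn1a, the p53 target that halts the cell cycle, had a UMI in 39 of 52 FLASH cells and 41 of 68 standard cells and 614 CPM in FLASH microglia and 619 CPM in standard microglia (-0.011 (-0.25 to 0.23)). In the standard library 1 cell held 85 of its 332 UMIs. Without the top cell of each library Cdkn1a had 561 CPM after FLASH and 461 CPM after standard irradiation. Its median cell had 357 CPM after FLASH and 223 CPM after standard irradiation. Mdm2, which degrades p53, had 60.7 CPM after FLASH and 59.7 CPM after standard irradiation (0.030 (-0.78 to 0.82)), and the death gene Bax had 243 CPM after FLASH and 233 CPM after standard irradiation (0.060 (-0.33 to 0.45)). Bbc3, another death gene, was the member at least 1.5 times lower, with 12 UMIs after FLASH and 26 after standard irradiation. Of the 16 members under the minimum, 4 had the higher level after FLASH and 10 the lower, and the share over all such genes is not given here. Genes of the phagocyte NADPH oxidase and of antioxidant defence had 10 of 11 above 0, 1 past 1.5 times (Txnrd1, thioredoxin reductase, 0.60 (-0.16 to 1.38)) and a median of 0.23. Cyba, a membrane subunit of the oxidase, had 1693 CPM after FLASH and 1528 CPM after standard irradiation (0.15 (0.0022 to 0.29)). Sod2, mitochondrial superoxide dismutase, was the member below 0 (-0.58 (-1.48 to 0.24)).

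Ion channels and purinergic receptors, with which microglia sense ATP, had 1 of 9 above and 8 below 0, 2 at least 1.5 times lower and a median of -0.32. Those 2 were P2ry12, whose UMIs helped to choose the cells, and the potassium channel gene Kcnk6, which had 37.4 CPM after FLASH and 70.9 CPM after standard irradiation (-0.90 (-1.87 to -0.047)). Without P2ry12, 1 of 8 was above and 7 below 0 and the median was -0.24. P2rx4, an ATP-gated channel, was the member above 0 (0.41). The median of the list turned to 0.29, over 5 genes, with the rule on 2000 UMIs. Growth factor and matrix genes had 4 of 13 above and 9 below 0 and a median of -0.052. Igf1, a growth factor that microglia supply to neurons, had 376 CPM after FLASH and 330.2 CPM after standard irradiation (0.19 (-0.13 to 0.50)), and Adamts1, a matrix protease, had 114 CPM after FLASH and 188 CPM after standard irradiation (-0.71 (-1.24 to -0.21)).

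Cell cycle genes were few and mixed, with 4 of 7 above and 3 below 0. Of these, 2 were at least 1.5 times higher and 1 at least 1.5 times lower, with a median of 0.25. The median kept its sign under 13 of 20 alternatives. It was -0.29, over 5 genes, without the 3 deepest microglia of each library and -0.036, over 6 genes, with doublets removed. Stmn1, a microtubule regulator, had 409 CPM after FLASH and 235 CPM after standard irradiation (0.80 (0.46 to 1.14)), and Top2a, a topoisomerase of dividing cells, had 12 UMIs after FLASH and 34 after standard irradiation (-1.14 (-2.26 to -0.19)). Few cells set the Top2a ratio, since 2 standard cells held 16 and 9 of its UMIs and 1 FLASH cell held 5. Granule lineage markers had 8 of 9 above 0, 2 at least 1.5 times higher (Neurod1 and Stmn2) and a median of 0.49. That median was -0.017, over 3 genes, without the tenth of microglia richest in these markers and -1.21, over 1 gene, with the rule on 2000 UMIs. The median cell had 236 CPM of the markers after FLASH and 253 CPM after standard irradiation. Stmn1 is abundant in the same lineage (2637 CPM after FLASH and 2543 CPM after standard irradiation in cells under the C1q minimum), and its sign turned to -0.17 with the rule on 2000 UMIs. The part of tumour RNA in the difference was not tested.

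**Figure D5:**
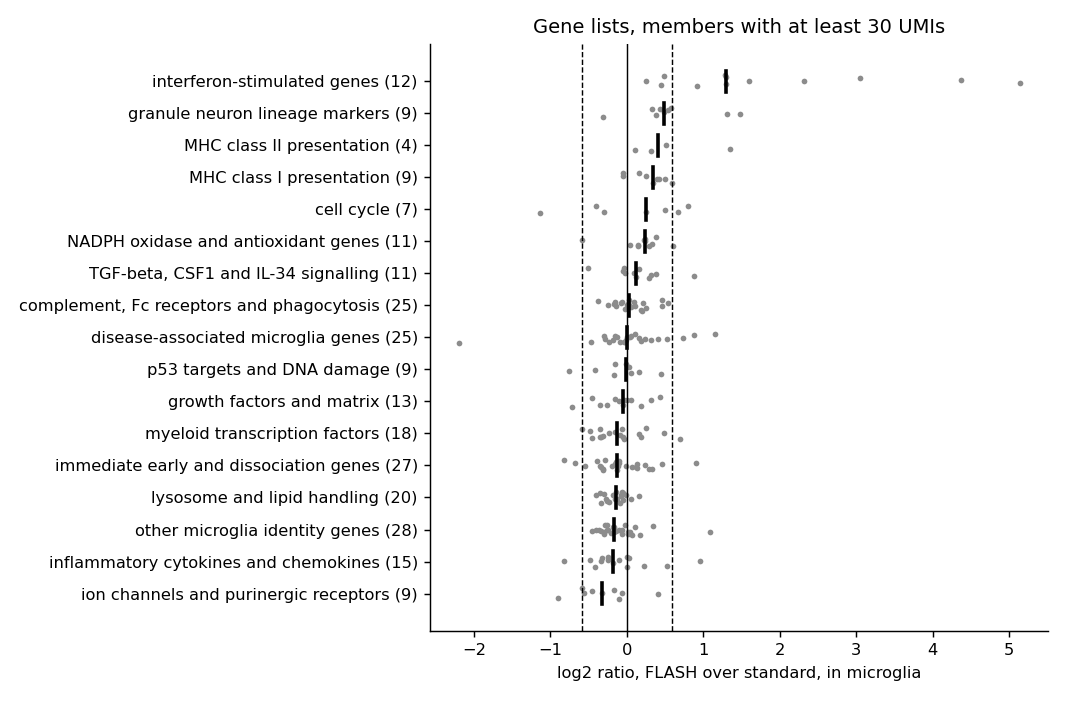
Log2 ratio of FLASH over standard microglia (horizontal axis) for members with at least 30 UMIs of 17 gene lists, with the number of such members in parentheses. Grey points are genes, black bars are list medians and dashed lines mark 1.5 times; the interferon-stimulated genes have the highest median (1.30) and ion channels and purinergic receptors the lowest (-0.32).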

How the data were processed

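Per the labels' protocols, single cells were prepared by enzymatic digestion and filtering and sequenced as 10x Genomics V3 libraries. The authors deposited raw UMI counts per gene and cell. The file headers name Cell Ranger 6.1.2 and the submitters' processing notes name mm10; the sources used here give no annotation release. Both matrices hold 31055 features, 35 symbols occur more than once, and 30934 gene IDs were matched to GENCODE M21 for coordinates.

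Cells were chosen on raw counts by the limits in the report, UMIs were summed per class and library, and ratios were taken after adding 0.5 count (Python 3.11.15, numpy 2.4.6, pandas 2.3.3). Intervals are exact: Clopper-Pearson for shares, conditional binomial for ratios (scipy 1.17.1). They leave out the spread between mice and between cells. A count of 0 was read as a floor of 3 UMIs. Scrublet in scanpy 1.11.5 marked 0 doublets at its automatic cutoff, so an alternative removed the 8.30% of FLASH and 6.77% of standard cells with the highest scores, among them 1 FLASH and 4 standard microglia. Named genes are the 12 highest and 12 lowest ratios with at least 100 UMIs, a UMI in 10 cells of the higher library and no cell over 25% of the UMIs of both libraries, leaving out genes of the mitochondrial genome, the ribosome, haemoglobin, immunoglobulins and the sex-linked set. Against macrophages, the 15 highest and 10 lowest were named. From each list the members with the highest level or largest ratio were taken. Summing and ratios were tested on simulated data. The microglia rule and the gene lists were chosen with earlier results of these data known.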

Additional observations from a re-analysis of the deposited data

How the results depend on the processing

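No paired analysis was possible because each group is 1 library. Under 11 alternatives the log2 ratio of the microglia share of kept cells stayed below 0, between -1.11 (rule on 2000 UMIs per cell, 18 FLASH and 31 standard cells) and -0.27 (no macrophage limit). The share of C1q cells turned to 0.018 without the macrophage limit and was below 0 under the others. The genes at least 1.5 times higher after FLASH, 42 of 1264 (3.32%), were 102 of 1548 (6.59%) with a homeostatic sum of at least 2, 25 of 879 (2.84%) with at least 5, 108 of 2650 (4.08%) without the macrophage limit, 23 of 429 (5.36%) with the rule on 2000 UMIs and 26 of 1033 (2.52%) without the tenth of microglia richest in lineage markers. With minimums of 30, 200 and 1 UMIs they were 324 of 4098 (7.91%), 10 of 587 (1.70%) and 2903 of 13237 (21.9%). The lower genes, 41 of 1264 (3.24%), were 27 of 879 (3.07%) with a homeostatic sum of at least 5, 25 of 1076 (2.32%) with a macrophage sum of at most 1, 79 of 2650 (2.98%) without that limit and 17 of 429 (3.96%) with the rule on 2000 UMIs, and 345 (8.42%), 10 (1.70%) and 3149 (23.8%) with those UMI minimums. The number of genes compared changes with the cells and UMIs that enter, and the cause of the other changes was not tested.

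Of 42 single genes past 1.5 times that were followed over 18 alternatives, 10 changed sign under at least 1, as did 79 of 105 within 1.5 times. Of those past it, with the rule on 2000 UMIs per cell the sign turned for Fxyd5 (-0.16), Rtn1 (-0.67), Slc16a6 (0.032), Spp1 (-1.05), Cd74 (-0.30), Stmn1 (-0.17), Stmn2 (-0.36) and Aqp4 (3.55). Without the 6 most interferon-rich microglia of each library, added after seeing the data, it turned for Ccl12 (-0.15) and Aqp4 (2.70), and without the tenth richest in lineage markers for Rtn1 (-0.47). With a homeostatic sum of at least 5 it turned for Aqp4 (2.67), and for Mcm3 with a macrophage sum of at most 1 (-0.14) and without the 3 deepest microglia (-0.26). With the rule on 2000 UMIs the median log2 ratio turned to 0.15 for myeloid transcription factors, 0.14 for immediate early genes, 0.039 for cytokines and chemokines, 0.015 for growth factors and matrix, -0.17, over 3 genes, for cell cycle and -0.31 for disease-associated genes. Of these lists, the mean of cells turned the median for cytokines and chemokines (0.083), myeloid transcription factors (0.049), immediate early genes (0.022) and disease-associated genes (-0.016). TMM scaling (edgeR 4.0.16) moved all log2 ratios by -0.034, a median ratio set to 0 by -0.039 and totals without mitochondrial and ribosomal UMIs by 0.029. The counts against macrophages, 84 and 79, were 64 and 69 with stricter class limits and 87 and 81 with the mean of cells. Depth limits the ratios of genes under 30 UMIs, for which counts are given, and 1 library per group leaves the spread between mice unknown.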
